A study of Homo sapiens with 6 samples.

Results

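The genes described here are the expressed members of the LINC series, the numbered symbols that human gene nomenclature gives to long intergenic noncoding RNAs (lincRNAs). They were taken from the deposited table as lncRNA genes with a LINC number and at least 300 counts summed over all 6 libraries, which left 78 of 2280 LINC-numbered genes. Of those 2280 genes, 681 had any count and 217 were tested, and all 78 of the expressed genes were tested. The genes were chosen by their summed counts, so their levels are given below as description. The rule did not use the comparison between the groups, but it was set with earlier results of these data known. A gene near the limit could also enter through a high level in one group alone, and this is set out beside the counts.

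The RNA came from PANC-1, an established human pancreatic cancer cell line labelled as wild type, and nothing in the labels says that the libraries come from separate cultures. Cells received either 20 µM Schisandrin B, a lignan from the fruit of Schisandra chinensis, or a vehicle of under 0.1% DMSO, for 24 h. Each group has 3 libraries, with 13656826 to 18289410 counts each in vehicle and 13667700 to 16045095 each in Schisandrin B. All p-values below therefore rest on the spread between these libraries, which may be technical.

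LincRNAs are transcribed, spliced and polyadenylated much like mRNAs but carry no long open reading frame, and most are present at low levels and mainly in the nucleus. Many start from promoters shared with a protein-coding gene that is read in the other direction, and some act on nearby genes while others act elsewhere or have no known role. Their abundance depends on transcription and on nuclear decay by the RNA exosome, which removes many unstable noncoding transcripts. Several have been described in pancreatic and other cancers as promoting or restraining growth, mostly from overexpression and knockdown experiments.

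The promoters of the genes on which the results turn are shown first, for strongly rising and falling genes with an entry in the promoter table. Those of 3 close divergent pairs are shown as well, in one of which only the coding gene passed. They come from the RefSeq promoter table on GRCh38.p14 and run from 250 bases before to 50 bases after the annotated start, in the direction of transcription. Of the 78 lincRNAs, 56 matched an entry by symbol or gene ID. LINC02604 had the second-highest fold change of the 78, and its window is chr7:66903870-66904169 on the plus strand, with a match to the antioxidant response element in capitals. LINC01409 also rose, and its window is chr1:778548-778847 on the plus strand, with the matches to the cyclic AMP response element in capitals. LINC01224 had the largest fall, and its window is chr19:23416025-23416324 on the minus strand, with none of the searched motifs and so no capitals. LINC01547 and SLX9 are the closest divergent pair, and in its window, chr21:44939864-44940163 on the minus strand, capitals mark the 83 bases between the genes. LINC00205 shares its promoter region with POFUT2, and in its window, chr21:45287802-45288101 on the plus strand, capitals mark the 136 bases between the genes. LINC01521 lies next to PATZ1, and in its window, chr22:31346509-31346808 on the plus strand, capitals mark the 268 bases of the window that lie between the genes. The window of LINC01560, 0.349 kb from ZNF41, holds no base between the genes and is not printed.
LINC02604: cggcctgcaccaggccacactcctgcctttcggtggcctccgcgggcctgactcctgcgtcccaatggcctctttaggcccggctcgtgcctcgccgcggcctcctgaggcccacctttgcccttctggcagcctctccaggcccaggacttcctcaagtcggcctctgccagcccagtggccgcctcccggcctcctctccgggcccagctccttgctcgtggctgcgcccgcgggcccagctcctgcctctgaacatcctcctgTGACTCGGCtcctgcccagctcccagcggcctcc
LINC01409: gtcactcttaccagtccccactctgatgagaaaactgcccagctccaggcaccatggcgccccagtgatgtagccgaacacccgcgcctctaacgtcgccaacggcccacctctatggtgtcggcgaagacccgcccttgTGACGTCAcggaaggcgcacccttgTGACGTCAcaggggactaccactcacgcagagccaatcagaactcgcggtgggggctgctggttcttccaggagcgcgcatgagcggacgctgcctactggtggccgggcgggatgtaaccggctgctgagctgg
LINC01224: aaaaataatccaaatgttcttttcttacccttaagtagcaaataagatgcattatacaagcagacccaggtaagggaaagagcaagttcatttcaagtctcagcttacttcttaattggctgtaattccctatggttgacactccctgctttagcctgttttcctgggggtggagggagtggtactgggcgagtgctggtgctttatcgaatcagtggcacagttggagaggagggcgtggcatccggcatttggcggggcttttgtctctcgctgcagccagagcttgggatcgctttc
LINC01547: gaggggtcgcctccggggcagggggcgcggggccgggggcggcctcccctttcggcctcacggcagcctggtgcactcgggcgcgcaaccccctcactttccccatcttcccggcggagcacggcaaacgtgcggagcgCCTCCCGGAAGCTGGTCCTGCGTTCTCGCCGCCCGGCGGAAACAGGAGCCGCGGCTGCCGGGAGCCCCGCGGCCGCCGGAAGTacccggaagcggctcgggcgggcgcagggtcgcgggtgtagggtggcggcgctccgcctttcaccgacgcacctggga
LINC00205: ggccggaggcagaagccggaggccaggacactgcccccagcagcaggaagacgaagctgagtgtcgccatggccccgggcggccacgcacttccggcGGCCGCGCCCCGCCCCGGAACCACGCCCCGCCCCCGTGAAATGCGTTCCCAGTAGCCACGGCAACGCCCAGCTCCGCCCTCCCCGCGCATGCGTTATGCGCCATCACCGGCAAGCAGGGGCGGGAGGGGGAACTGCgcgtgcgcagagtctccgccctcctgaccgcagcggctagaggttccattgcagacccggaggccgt
LINC01521: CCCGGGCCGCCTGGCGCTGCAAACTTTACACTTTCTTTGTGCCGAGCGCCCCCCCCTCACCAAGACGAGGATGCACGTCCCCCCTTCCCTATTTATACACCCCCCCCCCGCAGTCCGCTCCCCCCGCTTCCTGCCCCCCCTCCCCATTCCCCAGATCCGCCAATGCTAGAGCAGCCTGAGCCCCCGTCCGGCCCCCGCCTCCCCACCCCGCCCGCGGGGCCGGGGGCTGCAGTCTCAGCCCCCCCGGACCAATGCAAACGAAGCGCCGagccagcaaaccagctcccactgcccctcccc
LINC02449, LINC01977, LINC00174 and LINC01963 are named without a sequence. The GC content of the printed windows ran from 48.0% for LINC01224 to 76.3% for LINC01547.

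The label was checked against the annotation and against markers of the cell line. By the deposited GRCh38 positions, 15 of the 78 lincRNAs overlap a protein-coding gene, 42 overlap some gene with at least 10 counts, 35 of them one on the opposite strand, and 27 overlap no annotated gene. The name intergenic therefore holds by position for only some of them. Whether the counting used strand is not known here, so reads from an overlapping pair cannot be told apart. Of the 75 lincRNAs whose ID is in GENCODE release 29, all 75 overlap its position on the same strand, and GENCODE types 54 as lincRNA, 12 as processed transcript, 4 as antisense, 2 as sense overlapping, 2 as sharing a bidirectional promoter and 1 as protein-coding. Of the duct carcinoma markers, KRT8, KRT18, KRT19, SOX9 and VIM were present, for example KRT8 at a mean of 734 CPM (read counts relative to library size) in vehicle and 275 CPM in Schisandrin B, and all 5 were lower in Schisandrin B. KRT7 and EPCAM were near 0, with 10 and 32 counts over all libraries. The acinar markers PRSS1, CPA1 and CELA3A and the islet markers INS, GCG, SST and CHGA had 0 counts, and the acinar marker CTRB1 had 13. Of the fibroblast, endothelial, immune and hepatocyte markers reported here, COL1A2 was lower (mean 219 CPM in vehicle and 43.2 CPM in Schisandrin B), as were COL1A1 (1.48 and 0.774 CPM) and CDH5 (12.9 and 1.29 CPM). CD68 was higher (26.1 and 53.7 CPM), and DCN, LUM, PECAM1, VWF, PTPRC, CD3E and ALB had 2 to 34 counts over all libraries. The part of these marker changes in the lincRNA results was not tested.

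Schisandrin B libraries held more lincRNA counts than vehicle libraries. The 78 lincRNAs took 0.229%, 0.226% and 0.225% of the counts in the vehicle libraries and 0.303%, 0.293% and 0.302% in the Schisandrin B libraries. The groups did not overlap, with means of 0.227% ± 0.00208 and 0.299% ± 0.00551 (SD, n = 3 each). One gene, LINC02154, made up 52.8% to 54.9% of these counts in vehicle and 41.7% to 45.1% in Schisandrin B. Without it, the other 77 lincRNAs held 0.102% to 0.108% of the counts in vehicle and 0.166% to 0.171% in Schisandrin B. All lncRNA genes of the table together held 1.67% to 1.73% in vehicle and 3.11% to 3.34% in Schisandrin B, while pseudogenes held 0.847% to 0.885% and 0.836% to 0.88%.

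Olfactory receptor genes, which this cell type is not known to use, also collected more counts in Schisandrin B. The 401 olfactory receptor genes, of which 49 had any count and 0 were tested, held 13, 7 and 21 counts in the vehicle libraries and 33, 39 and 41 in the Schisandrin B libraries. Per library size these were 0.48 to 1.15 CPM in vehicle and 2.06 to 3.0 CPM in Schisandrin B, unscaled by TMM, with no overlap between the groups. The 94 keratin-associated protein genes held 19 counts in vehicle and 30 in Schisandrin B in all, and here the groups overlapped, at 0.273 to 0.586 CPM and 0.561 to 0.805 CPM. The olfactory receptor counts moved in the same direction as the lincRNAs, and their part in the lincRNA results was not tested.

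**Figure D1:**
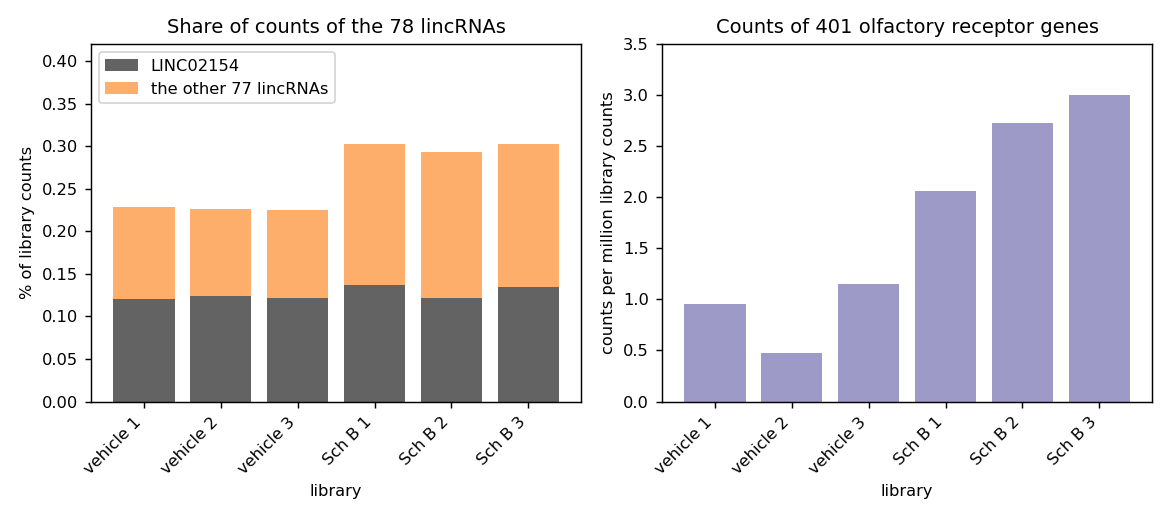
The left panel gives the share of library counts (%) taken by LINC02154 (grey) and by the other 77 lincRNAs (orange) in each of the 6 libraries, and the right panel the summed CPM of 401 olfactory receptor genes, unscaled by TMM. The share of the other 77 lincRNAs is 0.102% to 0.108% in vehicle and 0.166% to 0.171% in Schisandrin B, while the share of LINC02154 overlaps between the groups.

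Among the single genes, rises outnumbered falls. With edgeR's quasi-likelihood F-test and p-values adjusted by Benjamini-Hochberg over the 15773 tested genes (threshold 0.05), 43 of the 78 lincRNAs were higher with Schisandrin B, 10 lower, and 25 did not pass. The 53 called in either direction compare with 70.2% of all genes tested. The higher ones were 55.1% of the 78, beside 35.0% of all genes tested, and the lower ones 12.8%, beside 35.2% of all genes tested. The median log2 fold change was 0.46 over the 78 and 0.00 over all genes tested. A change of at least 2-fold was called for 21 higher and 3 lower lincRNAs, beside 14.8% and 8.75% of all genes tested and 30.4% and 2.0% of other lncRNA genes with at least 300 counts. Of the 21, 8 had under 150 counts in vehicle and entered through Schisandrin B, so this count is favoured by the choice of genes, and among the 66 lincRNAs with at least 150 counts in each group it was 13 higher and 3 lower. In 53 of the 78 the 3 Schisandrin B libraries did not overlap the 3 vehicle libraries, beside 73.5% of all genes tested, so a lack of overlap by itself was common in this experiment. DESeq2 called 40 higher and 7 lower, beside 31.6% and 32.4% of the genes it tested, and limma voom 43 and 10, beside 35.0% and 35.3%. With each library left out in turn, 40 to 43 were higher and 7 to 10 lower, beside 32.7% to 33.3% and 32.9% to 33.5% of the genes tested.

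Rises outnumbered falls among the other expressed lncRNA genes too. Of 800 other tested lncRNA genes with at least 300 counts, 512 (64.0%) were higher and 71 (8.88%) lower, with a median log2 fold change of 0.61. Of 10957 tested protein-coding genes with at least 300 counts, 31.3% were higher and 44.8% lower, with a median of -0.12. The lincRNA shares thus lay nearer to those of the other lncRNA genes than to those of the protein-coding genes, and no test was made of the lists.

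The counts also depend on how genes entered. Of the 78, 66 had at least 150 counts in each group, and of these 33 were higher and 10 lower, with a median log2 fold change of 0.34. Another 10 had under 150 counts in vehicle and entered through their Schisandrin B counts. All 10 were higher, with a median of 1.74, which their way of entry favours. The remaining 2 had under 150 counts in Schisandrin B and passed in neither direction. Just inside the limit stood LINC02449 with 303 counts (46 in vehicle, 257 in Schisandrin B), LINC03057 with 305 (157 and 148) and LINC01002 with 318 (83 and 235). Just outside stood LINC01355 with 294 (94 and 200), LINC01572 with 290 (117 and 173) and LINC01910 with 289 (192 and 97).

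**Figure D2:**
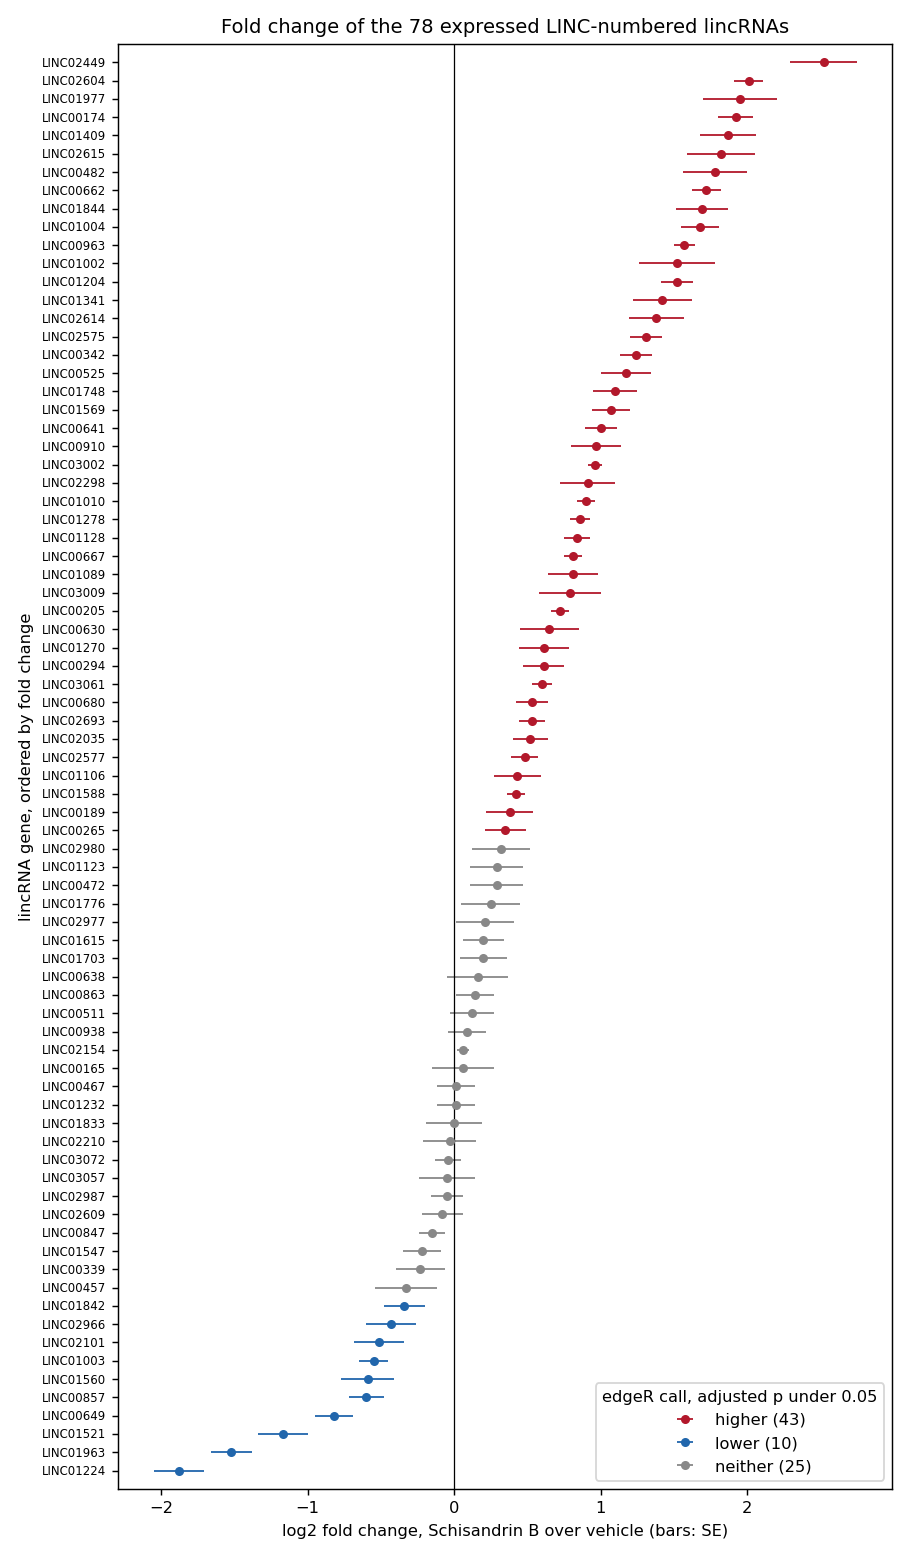
Each point is the log2 fold change of one of the 78 lincRNAs (Schisandrin B over vehicle, x axis) with its SE as a bar, ordered from the lowest to the highest, and colours give the edgeR call at an adjusted p under 0.05. The 43 higher genes (red) reach 2.52 for LINC02449 and the 10 lower genes (blue) reach -1.88 for LINC01224.

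LINC02449, on chromosome 12 (GRCh38, 8235415 to 8242564), had the highest fold change. Its 3 vehicle libraries held 0.816, 1.19 and 1.00 CPM and its 3 Schisandrin B libraries 5.26, 6.48 and 5.62 CPM. The groups lay far apart, but at low counts, and the log2 fold change was 2.52 (SE 0.23, adjusted p = 3.41e-08, this and all later ones from the same edgeR fit). It overlaps the pseudogene FAM86FP and another gene of the table, both on the other strand.

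LINC02604 (chromosome 7, 66902857 to 66906297) gave a similar fold change at a higher level. It held 7.12, 6.79 and 6.28 CPM in vehicle and 26.1, 28.3 and 26.9 CPM in Schisandrin B. Every Schisandrin B library was far above every vehicle library, with log2 fold change 2.01 (SE 0.10, adjusted p = 1.57e-11), or 4.03-fold. The window printed above lies inside its deposited interval, since RefSeq starts the transcript further downstream.

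LINC00174, on the same chromosome (66376044 to 66493566), held 12.1, 8.19 and 9.67 CPM in vehicle and 35.4, 39.3 and 38.7 CPM in Schisandrin B, with log2 fold change 1.92 (SE 0.12, adjusted p = 2.98e-10). It is antisense to TPST1, an enzyme that adds sulfate to tyrosines of secreted proteins, which stood at -0.05 and did not pass (adjusted p = 0.67). TPST1 was the only tested one of the 8 genes that LINC00174 overlaps, and it did not share the rise.

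LINC00963, on chromosome 9 (129476946 to 129513687), combined a large change with a high level. It has been described in prostate cancer that no longer responds to androgen withdrawal. It held 19.4, 18.6 and 18.2 CPM in vehicle and 55.4, 57.3 and 53.5 CPM in Schisandrin B. The groups were narrow and did not overlap, and the log2 fold change was 1.57 (SE 0.07, adjusted p = 3.67e-12), or 2.96-fold.

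LINC00662, on chromosome 19, is reported as growth-promoting in several cancers. It held 12.1, 9.11 and 10.1 CPM in vehicle and 36.1, 34.3 and 32.8 CPM in Schisandrin B (log2 fold change 1.72, SE 0.10, adjusted p = 1.57e-10). LINC02987 overlaps one end of it on the opposite strand and did not follow, at 13.1, 14.9 and 12.7 CPM in vehicle and 13.4, 13.1 and 12.8 CPM in Schisandrin B (log2 fold change -0.05, adjusted p = 0.703). Overlapping neighbours of one series thus differed in their call.

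LINC01409 and LINC01128 lie 15.1 kb apart near the end of chromosome 1 and both rose. LINC01409 held 1.93, 2.10 and 1.94 CPM in vehicle and 6.67, 8.51 and 6.77 CPM in Schisandrin B (log2 fold change 1.87, SE 0.19, adjusted p = 1.24e-07). LINC01128 held 14.2, 13.0 and 14.9 CPM in vehicle and 26.0, 23.9 and 25.6 CPM in Schisandrin B (log2 fold change 0.84, SE 0.09). Neither gene overlapped between the groups. Both lincRNAs overlap the same annotated gene on the opposite strand, one with at least 10 counts. With the strand setting unknown, both can hold reads of that gene, and its part in the 2 rises was not tested.

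The other genes among the 12 with the largest rises were LINC01977, LINC02615, LINC00482, LINC01844, LINC01004 and LINC01002, with log2 fold changes from 1.52 to 1.95. LINC01004, which lies antisense to KMT2E, a chromatin protein of the SET domain family, held 8.09, 7.21 and 6.72 CPM in vehicle and 23.5, 27.0 and 20.0 CPM in Schisandrin B (log2 fold change 1.68). KMT2E was higher too, at a mean of 73.0 CPM in vehicle and 110 CPM in Schisandrin B (log2 fold change 0.59, SE 0.05). LINC01004 lies wholly inside KMT2E, so with the strand setting unknown its counts can hold KMT2E reads. LINC01002, near the count limit, held 2.74, 1.47 and 1.39 CPM in vehicle and 4.41, 5.58 and 5.98 CPM in Schisandrin B (log2 fold change 1.52, SE 0.26), without overlap. LINC01977 varied in vehicle, at 2.37, 0.981 and 1.5 CPM, against 6.24, 6.00 and 6.41 CPM in Schisandrin B.

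The largest fall was that of LINC01224 (chromosome 19, 23399097 to 23416075), which lies in a cluster of zinc finger genes. It held 14.9, 13.3 and 14.7 CPM in vehicle and 2.82, 4.95 and 3.96 CPM in Schisandrin B. The groups were well apart, and the gene was 3.68-fold lower in Schisandrin B (log2 fold change -1.88, SE 0.17, adjusted p = 3.06e-08). Its neighbour ZNF91, a KRAB zinc finger protein that silences retrotransposons, lies 3.63 kb away and moved the other way by a small amount (log2 fold change 0.26, SE 0.11, adjusted p = 0.0418).

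LINC01963 (chromosome 2, 216217045 to 216220192) has been reported as growth-restraining in pancreatic carcinoma. It held 16.5, 16.0 and 17.5 CPM in vehicle and 5.88, 6.90 and 4.61 CPM in Schisandrin B (log2 fold change -1.52, SE 0.14, adjusted p = 2.94e-08). LINC01521 held 7.42, 8.12 and 7.78 CPM in vehicle and 3.00, 3.49 and 3.89 CPM in Schisandrin B (log2 fold change -1.17, SE 0.17, adjusted p = 7.45e-06). These and LINC01224 were the 3 lincRNAs that fell at least 2-fold, and all 3 overlap no other gene of the table.

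The remaining falls were smaller. LINC00649 held 18.5, 16.2 and 13.1 CPM in vehicle and 9.98, 8.57 and 8.36 CPM in Schisandrin B (log2 fold change -0.82, SE 0.13, adjusted p = 3.5e-05). LINC00857, described in several cancers, fell by 0.60 on the log2 scale, LINC01560 by 0.59, LINC01003 by 0.55, LINC02101 by 0.51 and LINC01842 by 0.34. LINC02966 passed at log2 fold change -0.43 (adjusted p = 0.0343), although its groups overlap at 5.67 to 7.56 CPM in vehicle and 4.41 to 5.86 CPM in Schisandrin B. It lost its call with DESeq2, upper-quartile scaling, library totals and the filter of 5 CPM in 3 libraries, and without vehicle replicate 1 or 3 or Schisandrin B replicate 1 or 3. LINC01842 (adjusted p = 0.0353) and LINC02101 (adjusted p = 0.0152) lost their calls with DESeq2 (adjusted p = 0.122 and 0.0615) and when single libraries were left out, with an adjusted p of 0.0889 and 0.065 without Schisandrin B replicate 2 and of 0.0915 and 0.0505 without vehicle replicate 3. LINC01842 also lost its call with upper-quartile scaling (adjusted p = 0.0795), library totals (0.0637) and the 5 CPM filter (0.0936), and without vehicle replicate 1 (0.0692) or Schisandrin B replicate 3 (0.0691).

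**Figure D3:**
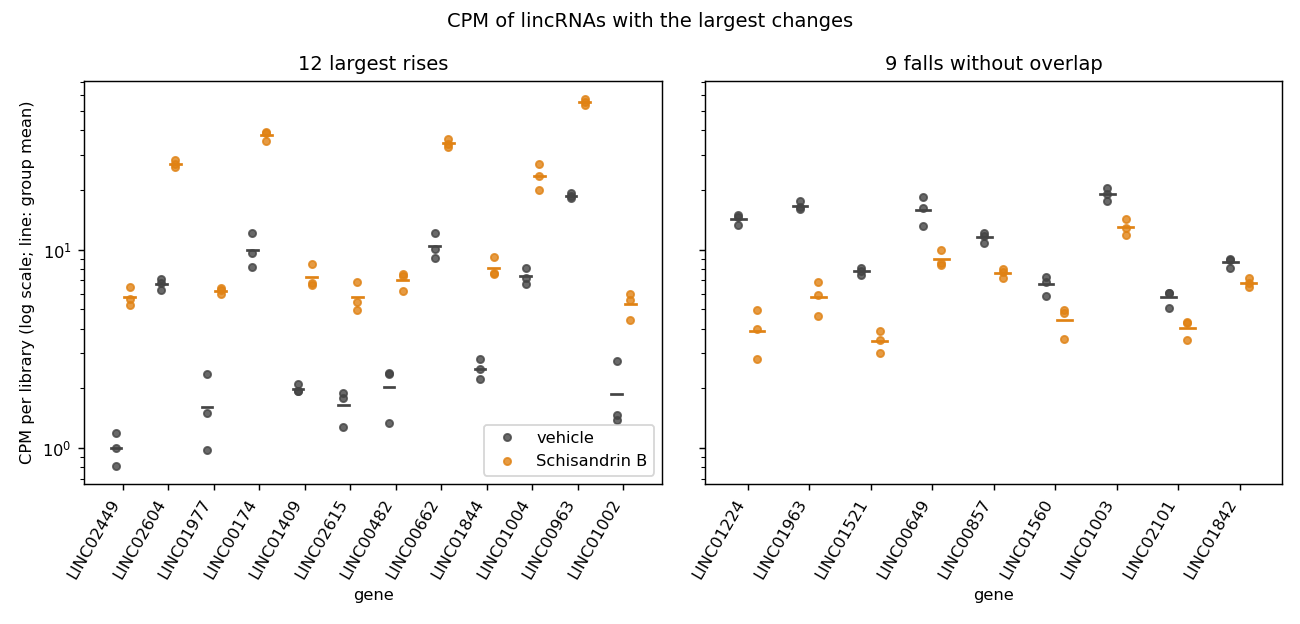
CPM (log scale) of the 12 lincRNAs with the largest rises (left) and of the 9 that fell without overlap between groups (right), with one point for each of 3 vehicle (grey) and 3 Schisandrin B (orange) libraries and a line at the group mean. The points separate fully for each gene, from LINC02449 at 0.816 to 1.19 CPM against 5.26 to 6.48 CPM to LINC01842 at 8.12 to 8.95 CPM against 6.48 to 7.22 CPM.

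The most abundant lincRNA behaved unlike most of the others. LINC02154, on the X chromosome (13266041 to 13303452), ranked 64th of all genes in the table by mean deposited FPKM, the count scaled for gene length and library size. It held 1220, 1270 and 1240 CPM in vehicle and 1340, 1220 and 1320 CPM in Schisandrin B. The groups overlapped, and the log2 fold change of 0.06 (SE 0.04, adjusted p = 0.217) did not pass. It did pass as higher without Schisandrin B replicate 2, where the log2 fold change was 0.11 (adjusted p = 0.0114). It passed also with upper-quartile scaling, with library totals and with a filter of 5 CPM in 3 libraries, settings in which 38.0%, 37.1% and 38.1% of all genes tested passed as higher.

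The next genes by level rose. LINC03002, at a mean of 107 FPKM beside 756 FPKM for LINC02154, held 151, 139 and 141 CPM in vehicle and 276, 293 and 271 CPM in Schisandrin B (log2 fold change 0.96, SE 0.05, adjusted p = 7.79e-12). LINC03061, at 38.5 FPKM, held 150, 152 and 142 CPM in vehicle and 199, 238 and 236 CPM in Schisandrin B (log2 fold change 0.60, SE 0.07). LINC01588, at 32.3 FPKM, held 65.7, 61.1 and 59.7 CPM in vehicle and 76.9, 85.8 and 86.9 CPM in Schisandrin B (log2 fold change 0.42, SE 0.06). In none of these 3 did the groups overlap, and their changes were well below those of the strongest, less abundant risers.

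LINC01010, LINC00847, LINC00205 and LINC01278 followed at 9.73 to 20.6 FPKM. LINC01010 lies 15.6 kb from LINC03002 beside SGK1, a serum- and glucocorticoid-induced kinase, and rose from 36.3, 32.8 and 32.2 CPM to 63.5, 63.9 and 61.6 CPM (log2 fold change 0.90, SE 0.06). SGK1 itself was higher by only 0.20 (SE 0.04, adjusted p = 0.000254). LINC00847 stood at 30.3, 29.8 and 30.8 CPM in vehicle and 29.2, 23.9 and 28.9 CPM in Schisandrin B and did not pass (log2 fold change -0.15, adjusted p = 0.139). The median over the 78 was 3.48 FPKM, so most of them were present at a small part of the level of these 8.

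The share of lincRNAs called higher was larger in the higher bands of counts, a difference that was not tested. With at least 300 but under 1000 summed counts, 23 of 50 lincRNAs were higher and 7 lower, with a median log2 fold change of 0.29. With at least 1000 but under 3000 counts, 12 of 19 were higher and 3 lower, with a median of 0.53. With at least 3000 counts, 8 of 9 were higher and 0 lower, with a median of 0.81, the 9th being LINC02154. In the same bands 58.3%, 69.4% and 80.9% of the other lncRNA genes were higher, with medians of 0.58, 0.61 and 0.91. Of the protein-coding genes 28.9%, 29.4% and 33.1% were higher, with medians of -0.03, -0.11 and -0.13. The share called in neither direction was smaller in the higher bands, at 20 of 50, 4 of 19 and 1 of 9 lincRNAs. Among protein-coding genes it was 647 of 1706, 934 of 3302 and 1039 of 5949. The part of count depth in the called shares was not tested.

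Per gene length, level and change were unrelated over the 78. The log2 fold change had r = 0.00 and rho = 0.01 with the log10 mean FPKM, and the higher, lower and uncalled genes had median FPKM of 4.12, 3.63 and 3.25. With the vehicle FPKM alone the values were r = -0.33 and rho = -0.44, but the vehicle libraries enter both measures. These are descriptions across 78 genes that share the same 6 libraries. Over the 75 genes with a GENCODE transcript, r was 0.01 with GC content and 0.06 with the log10 length of the longest transcript.

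**Figure D4:**
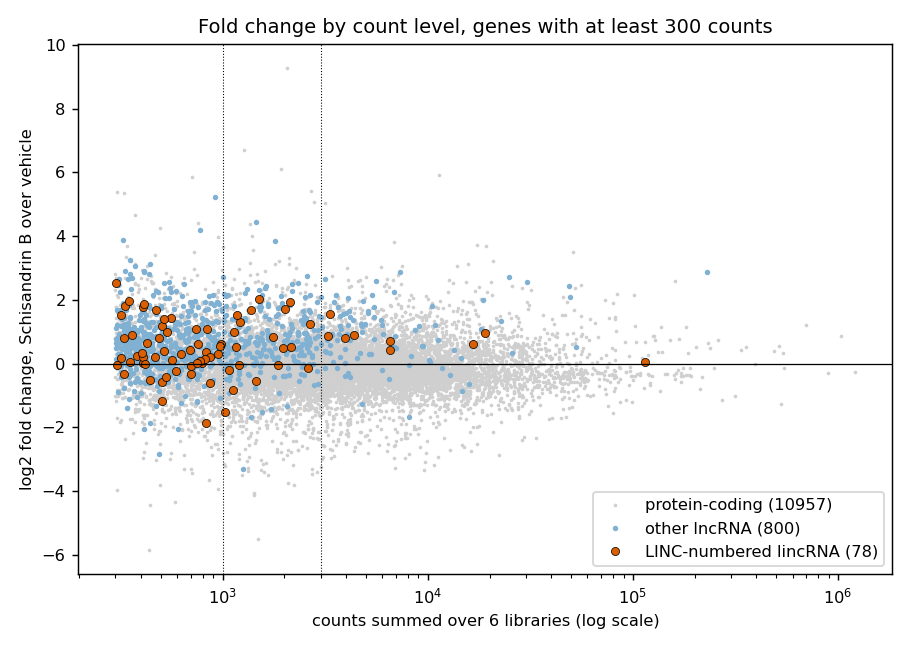
Log2 fold change (Schisandrin B over vehicle) against counts summed over 6 libraries (log scale) for tested genes with at least 300 counts, with protein-coding genes in grey, other lncRNA genes in blue, the 78 lincRNAs in orange and dotted lines at 1000 and 3000 counts. The lincRNAs lie mostly above 0 among the other lncRNA genes, and the point far to the right near 0 is LINC02154.

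Most lincRNAs reported in pancreatic cancer were too low in these libraries to be tested. Of 19 lincRNAs reported in pancreatic cancer, 14 were in the table and 4 were tested, with 0 higher, 1 lower and a median log2 fold change of 0.06. The one that fell was LINC01963. LINC00511, described as growth-promoting, stood at 5.93, 5.95 and 6.11 CPM in vehicle and 7.22, 6.07 and 6.19 CPM in Schisandrin B (log2 fold change 0.12, adjusted p = 0.512). LINC01232 had log2 fold change 0.01 and LINC02432, below the count limit, of 0.28, and neither passed.

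Of 10 lincRNAs reported in ferroptosis, an iron-dependent form of cell death by lipid peroxidation, 9 were in the table and 4 tested, with 0 passing in either direction and a median of 0.29. The one with at least 300 counts was LINC00472, whose transcript P53RRA is known from work in other cells to bind G3BP1 and favour ferroptosis. It held 6.23, 5.88 and 6.61 CPM in vehicle and 6.79, 10.1 and 6.05 CPM in Schisandrin B. The groups overlapped, with one high Schisandrin B library (log2 fold change 0.29, SE 0.18, adjusted p = 0.166). Without that library, replicate 2, the log2 fold change was 0.05, and without Schisandrin B replicate 3 it was 0.43, neither of which passed.

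Of 14 other lincRNAs with a described function, 13 were in the table and 6 tested, all among the 78, with 4 higher, 0 lower and a median of 0.98. The 4 were LINC00963 and LINC00662, given above, LINC00342 at log2 fold change 1.24 (SE 0.11, adjusted p = 7.84e-08) and LINC00205 at 0.72 (SE 0.06, adjusted p = 1.6e-08). LINC00467 (0.01) and LINC00339 (-0.23) did not pass. The 78 as a whole had 55.1% higher, so 4 of 6 is not far from that share.

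By position, rises were called at every distance from protein-coding genes. Of 15 lincRNAs that overlap a protein-coding gene, 9 were higher and 1 lower (median log2 fold change 0.61). Of 17 with a gene within 5 kb but no overlap, 7 were higher and 4 lower (0.21), of 29 at 5 to 50 kb, 16 were higher and 4 lower (0.43), and of 17 farther away, 11 were higher and 1 lower (0.61). The lowest share of rises and the highest share of falls thus stood just outside the coding genes, in a group of 17. Of the 42 that overlap a gene with at least 10 counts, 26 were higher and 4 lower, with a median of 0.61. Of the 27 that overlap no annotated gene, where reads of another gene are least in question, 13 were higher and 5 lower, with a median of 0.25, and these 27 include 10 of the 21 called rises and all 3 called falls of at least 2-fold.

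By orientation, the lincRNAs antisense to an overlapping coding gene had 6 of 9 higher and 1 lower. Those transcribed divergently, away from the coding gene, had 10 of 19 higher and 4 lower, and those upstream on the same strand 8 of 13 higher and 3 lower. Those downstream on the same strand had 12 of 23 higher and 2 lower, and convergent ones 4 of 8 higher and 0 lower. The groups are small, and no difference between them was tested.

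A nearest protein-coding gene within 50 kb was present for 61 of the 78. In 18 of these pairs both genes passed in the same direction, 13 higher and 5 lower, and in 11 they passed in opposite directions, 9 with the lincRNA higher and 2 with it lower. In 9 pairs only the lincRNA passed, in 3 the coding gene was not tested, and in 20 the lincRNA did not pass. So 13 of 29 rising lincRNAs with a tested neighbour had a higher neighbour, beside 32.1% of all tested protein-coding genes, and 5 of 9 falling ones had a lower neighbour, beside 41.4%. Over 54 pairs with a tested neighbour the log2 fold changes had r = 0.29 and rho = 0.27, and over the 41 without overlap r = 0.29 and rho = 0.28. The paired genes share the same libraries, and for overlapping pairs possibly reads, so these values are descriptions.

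**Figure D5:**
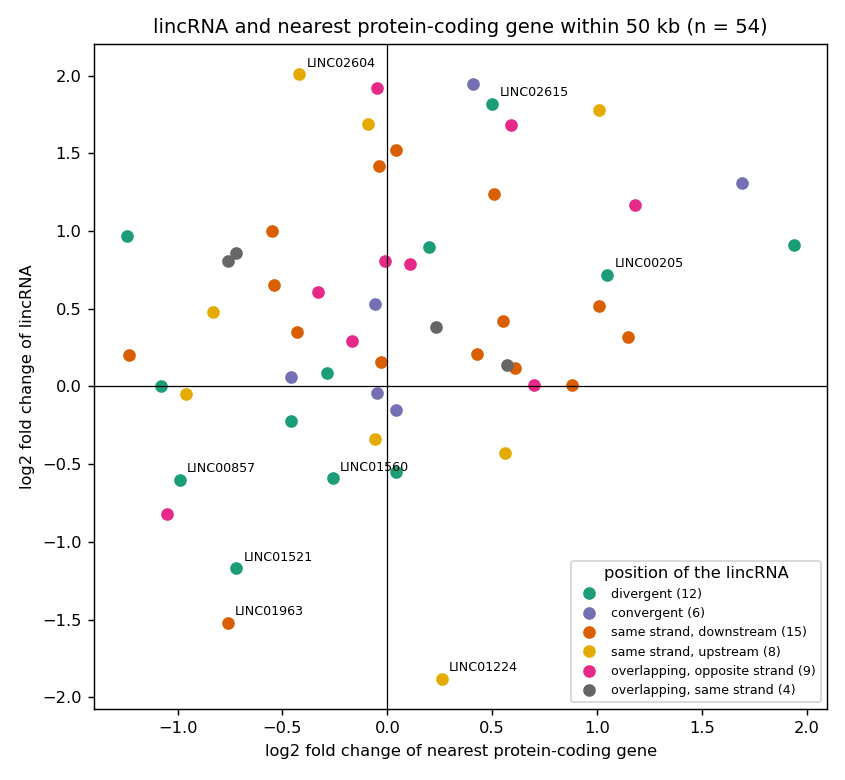
Log2 fold change of each lincRNA (y axis) against that of its nearest protein-coding gene within 50 kb (x axis) for 54 pairs with a tested neighbour, coloured by the position of the lincRNA. The points scatter over all 4 quadrants (r = 0.29), with LINC00205 high in both, LINC01521 low in both, and LINC02604 high beside a lower neighbour.

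The divergent pairs within 50 kb went together more often than apart, 7 against 1 of 13 pairs, 4 higher and 3 lower. Over the 12 with a tested neighbour r was 0.48 and rho 0.38. LINC00205 is the clearest rising pair. It held 56.7, 51.3 and 56.9 CPM in vehicle and 83.2, 93.6 and 95.5 CPM in Schisandrin B, without overlap. POFUT2, an enzyme that adds fucose to thrombospondin repeats and is read in the other direction, went from 32.9 ± 0.532 CPM to 68.3 ± 5.35 CPM (SD, n = 3 per group). On the log2 scale the fold changes were 0.72 (SE 0.06) for the lincRNA and 1.05 (SE 0.07, adjusted p = 2.41e-10) for POFUT2.

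LINC01521 is the clearest falling pair. Its partner PATZ1, a zinc finger transcription factor 0.431 kb away, went from 47.5 ± 1.62 CPM to 28.7 ± 2.45 CPM with log2 fold change -0.72 (SE 0.08, adjusted p = 1.86e-07), beside the fall by 1.17 of the lincRNA. LINC01560 and ZNF41 were both lower, at -0.59 and -0.26, as were LINC00857 and ANXA11, a calcium-dependent phospholipid-binding protein, at -0.60 and -0.99. LINC02615 and PGRMC2, a haem-binding membrane protein, were both higher, at 1.82 and 0.50. LINC01010 with SGK1 and LINC02298 with GPR132 were both higher as well, at 0.90 and 0.20 and at 0.91 and 1.94.

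In the divergent pairs LINC01547 with SLX9 and LINC01833 with SIX3 only the coding gene passed. LINC01547 and SLX9, with 83 bases between them the closest pair, both had negative values. These were -0.22 (SE 0.13, adjusted p = 0.138) and -0.46 (SE 0.08, adjusted p = 7.92e-05), and they were not compared with each other. LINC01833 stood at 0.00 beside SIX3, a homeobox gene, at -1.08.

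Overlapping and same-strand pairs gave both patterns. LINC00525 and its antisense partner PKD1L1 were both higher, at 1.17 and 1.18, and LINC00649 and ATP5PO, a subunit of mitochondrial ATP synthase, were both lower, at -0.82 and -1.05. With the strand setting unknown, the counts of such pairs can hold reads of either gene. LINC00649 and ATP5PO overlap only at their ends, from 33915534 to 33915814 on chromosome 21. LINC00294 was higher at 0.61 over CSTF3, a cleavage stimulation factor, at -0.33, and LINC01278 at 0.86 with SPIN4 at -0.72, which are changes in opposite directions. Of genes without overlap, LINC02604 was higher beside TMEM248 at -0.42, and LINC01963 fell with XRCC5, the Ku80 subunit of DNA end joining, at -0.76.

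The searched motifs were each in 0 to 9 of the 56 matched promoters. On both strands, the antioxidant response element TGACNNNGC was in 9 of 56 matched promoters (16.1%), beside 13.3% of 35116 promoters, and it can overlap the AP-1 motif TGANTCA, in 5 of 56 (8.93%) beside 7.71%. The ATF4 composite TGATGNAA was in 1 (1.79%, beside 3.62%) and the cell cycle element TTTGAA in 5 (8.93%, beside 15.2%). The XBP1 or ATF6 element TGACGTGG and the E2F motif TTTNGCGC were in 0, beside 0.729% and 1.79%. The cyclic AMP response element TGACGTCA, added after the sequences were seen, was in 3 (5.36%, beside 1.85%), namely LINC01409 with both copies printed above, LINC00265 and LINC00630. LINC01409 was printed for its rise before the motif was added, so the choice favours this share. All 3 were higher, but 29 of the 56 matched promoters belong to higher genes. Of the 8 matched promoters of lower genes, 0 held any searched motif. The share of all promoters with any of these motifs is not given here, so this 0 has no background beside it. LINC00265 (adjusted p = 0.0286) lost its call with DESeq2, with no low-count filter, and without vehicle replicate 2 or 3 or Schisandrin B replicate 1 or 2. In the authors' own test LINC00265 (adjusted p = 0.19) and LINC00630 (adjusted p = 0.0565) did not pass. The median GC content was 55.0% in the 29 matched promoters of higher genes and 63.8% in the 8 of lower genes, beside 58.7% over all promoters.

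Among genes of the machinery that ends and degrades noncoding transcripts, falls outnumbered rises, as they did among protein-coding genes at large. Of 24 genes of the nuclear exosome and its adaptors, 6 were higher and 12 lower, with a median log2 fold change of -0.19. Among them ZFC3H1, which brings polyadenylated nuclear RNA to the exosome, was at 0.77 and the exosome subunit EXOSC8 at 0.72. ZC3H18, which links the cap to the exosome, was at -0.52. Of 15 Integrator subunits, which cut nascent noncoding transcripts, 1 was higher and 10 lower (median -0.25), with INTS1 at -0.64. Of 21 genes for cleavage, polyadenylation and termination, 2 were higher and 15 lower (median -0.28), among them CSTF2 at -1.03, NUDT21 at -0.95 and CPSF3, the endonuclease, at -0.79. Of 15 genes of nonsense-mediated decay, 3 were higher and 9 lower (median -0.19), with UPF1 at -0.64 and SMG1 at 0.56. Protein-coding genes tested had 32.1% higher and 41.4% lower with a median of -0.08, and a link between these genes and the lincRNAs was not tested.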

How the data were processed

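Per the labels' protocols, libraries were made from total RNA with a SMARTER mRNA-Seq kit. The authors deposited whole-number counts per Ensembl gene, headed as counts in the file. They also deposited FPKM, per the file headers, which were used here only to compare levels between genes. The deposited fold change (a ratio of Schisandrin B over vehicle), log2 fold change and p-values are the authors' own, from a test not named here. Builds named in the submitters' processing notes are GRCh38 and mm10. For the aligner, counter and strand, nothing is given in the sources used here.

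Counts were tested in R 4.3.3 with edgeR 4.0.16: filterByExpr kept 15773 of 63241 genes, libraries were TMM-scaled, and the two-sided quasi-likelihood F-test was robust. P-values were Benjamini-Hochberg adjusted over these genes, with the threshold at 0.05. The SE is the log2 fold change divided by the square root of F, and CPM are TMM-scaled. With 3 against 3 libraries an exact two-sided permutation p cannot go below 0.1. The 78 genes and the lists were chosen with earlier results of these data known. Neighbours were the nearest protein-coding genes, edge to edge on the deposited positions. The script was tested on simulated counts.

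Named were the 12 largest rises and falls without overlap, the 8 highest by FPKM, genes beside the count limit, genes on the reported lists, close pairs and machinery genes. Neighbour pairs outside this rule, LINC02966, LINC02980, LINC00457, LINC00265 and the cyclic AMP motif were chosen after their values were seen. LINC symbols that resemble other entries (LINC00680, LINC00265 and LINC02210) are uncertain. Alternatives were other scalings, filters, DESeq2 1.42.0, limma 3.58.1 voom, a replicate block, left-out libraries, other count limits and a GC and length correction. Some items are not reported here.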

Additional observations from a re-analysis of the deposited data

How the results depend on the processing

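The 43 higher and 10 lower lincRNAs became 40 and 7 with DESeq2, 43 and 10 with limma voom, and 40 to 43 and 7 to 10 when each library was left out in turn. No called lincRNA changed direction in any setting. The median log2 fold change of 0.46 was 0.52 with upper-quartile scaling, 0.50 with library totals, 0.40 with no low-count filter, 0.60 over the 65 lincRNAs with at least 5 CPM in 3 libraries, and 0.37 over 75 with a GC and transcript length correction, added after seeing the data. With each library left out in turn it was 0.43 to 0.48. The count limit moved the numbers by construction: at least 100 counts gave 85 higher and 18 lower of 158 (median 0.55), at least 1000 counts gave 20 and 3 of 28 (0.77), at least 150 in vehicle gave a median of 0.29, at least 150 in each group 0.34, and over 5 kb from any protein-coding gene 27 and 5 of 46 (0.52).

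Among the 38 named lincRNAs, values near 0 changed sign without ever passing. LINC00467 went to -0.04 with no low-count filter and to -0.001 with the GC and length correction, LINC01232 to -0.04 with no low-count filter, LINC02987 to 0.01 with upper-quartile scaling and 0.03 with the 5 CPM filter, and LINC03057 to 0.01 with upper-quartile scaling. With libraries left out in turn LINC00467 ranged from -0.04 to 0.06, LINC01232 from -0.05 to 0.06 and LINC02987 from -0.11 to 0.02. LINC02154 passed at 0.12 with upper-quartile scaling, 0.10 with library totals and 0.14 with the 5 CPM filter. The causes were not tested.

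With a replicate block, 42 were higher and 8 lower, beside 34.7% and 34.9% of all genes tested, with a median of 0.46. LINC00189, LINC02966 and LINC01842 lost their calls there. The labels give only numbers, and same-numbered libraries had correlations of deviations of 0.0337, -0.0527 and -0.0113, so they were not treated as pairs. The authors' deposited table has 39 higher and 7 lower at an adjusted p under 0.05. The share of all genes called in that table is not given here, so these counts have no background beside them. LINC00630, LINC01106, LINC00265, LINC00189, LINC02966, LINC02101 and LINC01842 passed in the edgeR fit but not there. Near the count limit LINC02980 (log2 fold change 0.32, SE 0.20) and LINC00457 (-0.33, SE 0.21) did not pass. Which size of change could be detected there at this depth was not tested.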
